A study of Mus musculus with 108 samples.

Results

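Hippocampal tissue of mice at postnatal day 28 (P28) was compared with hippocampal tissue at postnatal day 21 (P21). The comparison was chosen by age label, and it uses 6 of the 15 tissue libraries of the series, 3 of P28 and 3 of P21, all lysates of whole hippocampus. The other tissue libraries are of P0, P7 and P14 with 3 each, and the series also holds 93 single neurons. RNA was isolated with a Qiagen AllPrep kit, turned into cDNA with a SMARTer version 4 kit and tagmented by Nextera, in the same way for every tissue library. Strain, sex, time of day of collection and weaning are not given in the sources used here, and no treatment or allele is named. Replicates are labelled as independent without naming animals, so p-values measure the spread between these samples, which may be technical.

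The fourth postnatal week follows the steepest phase of synapse formation and myelination in the rodent hippocampus, and circuits are then refined by activity. Glutamate receptors carry fast excitation, GABA receptors inhibition, and voltage-gated channels set how neurons fire, while astrocytes, oligodendrocytes, microglia and vessels complete the tissue. Several transcript groups of this tissue also follow the state of the animal: immediate early genes follow neuronal activity, period and cryptochrome genes the daily clock, glucocorticoid targets the stress hormone, and heat shock and cold-inducible genes temperature and protein folding. In whole tissue, fewer cells of a type and less RNA per cell cannot be told apart.

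P28 libraries held 7530586, 12421344 and 13209907 gene reads, and P21 libraries 13262818, 12088573 and 6871254. Log expression correlated at 0.985 to 0.988 between P28 libraries and at 0.982 to 0.984 between P21 libraries, against 0.977 to 0.982 between libraries of the 2 ages. Excitatory neurons were marked at both ages: P28 tissue had 1492, 1732 and 1490 reads per 1000000 (CPM) of Slc17a7, their vesicular glutamate transporter, and P21 tissue 1609, 1831 and 1626 CPM.

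Promoter windows of 4 called genes are given as examples, chosen because they hold the recognition motifs for which their groups are known. Each runs from 250 bases before to 50 bases after a RefSeq transcription start (build GRCm38.p6), is written 5′ to 3′ on the strand of the gene, and has its motif matches in capitals. The heat shock element was searched as 3 alternating units GAA, TTC and GAA with 2 bases between units, the glucocorticoid response element as AGAACA and TGTTCT with 3 bases between them, and the E-box of clock proteins as CACGTG, all on both strands. Chordc1 (chr9:18292017-18292316, + strand) has 3 overlapping heat shock elements from base 247 of the window. Hsph1 (chr5:149636287-149636586, - strand) has an E-box and, at base 287, a heat shock element. Sgk1 (chr10:21993640-21993939, + strand, one of its alternative starts) has an E-box and, at base 62, a glucocorticoid response element. Per1 (chr11:69098699-69098998, + strand) has an E-box at base 85, and its other window, at another start, has none of these motifs.
Chordc1: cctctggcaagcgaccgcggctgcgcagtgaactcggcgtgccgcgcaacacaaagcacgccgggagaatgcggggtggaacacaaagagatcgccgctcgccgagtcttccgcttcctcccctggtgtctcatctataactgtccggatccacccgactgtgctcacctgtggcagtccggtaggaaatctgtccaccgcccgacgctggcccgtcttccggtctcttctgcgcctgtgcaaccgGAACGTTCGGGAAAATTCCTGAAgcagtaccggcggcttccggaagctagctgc
Hsph1: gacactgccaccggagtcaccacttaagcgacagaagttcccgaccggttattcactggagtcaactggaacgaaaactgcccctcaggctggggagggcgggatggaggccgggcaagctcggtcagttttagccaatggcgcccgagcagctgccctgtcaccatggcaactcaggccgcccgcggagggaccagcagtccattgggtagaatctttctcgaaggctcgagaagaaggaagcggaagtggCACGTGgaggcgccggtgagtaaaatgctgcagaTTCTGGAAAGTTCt
Sgk1: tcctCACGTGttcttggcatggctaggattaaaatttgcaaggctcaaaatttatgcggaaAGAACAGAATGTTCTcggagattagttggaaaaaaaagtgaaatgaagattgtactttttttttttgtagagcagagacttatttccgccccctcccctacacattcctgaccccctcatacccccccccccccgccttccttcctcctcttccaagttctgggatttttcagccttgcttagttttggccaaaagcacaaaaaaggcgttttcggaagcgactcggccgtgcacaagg
Per1: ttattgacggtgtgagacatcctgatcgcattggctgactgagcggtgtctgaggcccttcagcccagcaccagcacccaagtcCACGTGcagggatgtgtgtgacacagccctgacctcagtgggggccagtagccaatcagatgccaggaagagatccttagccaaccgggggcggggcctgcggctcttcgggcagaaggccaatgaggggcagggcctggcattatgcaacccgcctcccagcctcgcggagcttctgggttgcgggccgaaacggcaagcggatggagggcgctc

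A heat shock element was found in 67 of 11561 tested genes with a promoter window (0.580%) and in 4 of the 14 genes of the heat shock and cold-inducible list that have a window. A glucocorticoid response element was found in 1 of the 11561 genes, Sgk1, and an E-box in 1317 (11.4%). Of list genes with a window, 5 of 18 clock genes and 8 of 27 immediate early genes had an E-box. Among called clock genes, Cry1 and Gm129 also had an E-box, while the windows of Per3, Cry2 and Nfil3 had none. A match describes the letters of the window and is not evidence of binding.

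At P28 against P21 a small share of the transcriptome changed, in both directions and mostly by less than 2-fold. Of 14737 genes with enough reads to test, 1154 (7.83%) were called at an adjusted p under 0.05 (edgeR quasi-likelihood test, Benjamini-Hochberg adjustment): 662 were higher at P28 (4.49%) and 492 lower (3.34%). The median log2 fold change was 0.57 among the higher and −0.45 among the lower, and 78 and 53 genes changed over 2-fold. All P28 libraries lay on one side of all P21 libraries for 656 of the genes called higher and 487 of those called lower, which held for 29.4% of all tested genes. Leaving out 1 library at a time gave 302 to 527 genes higher and 179 to 342 lower, with the fewest in both directions without P21 replicate 2. Such a fit has fewer libraries to call with, so a lost call need not mean that the library left out carried the difference.

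**Figure D1:**
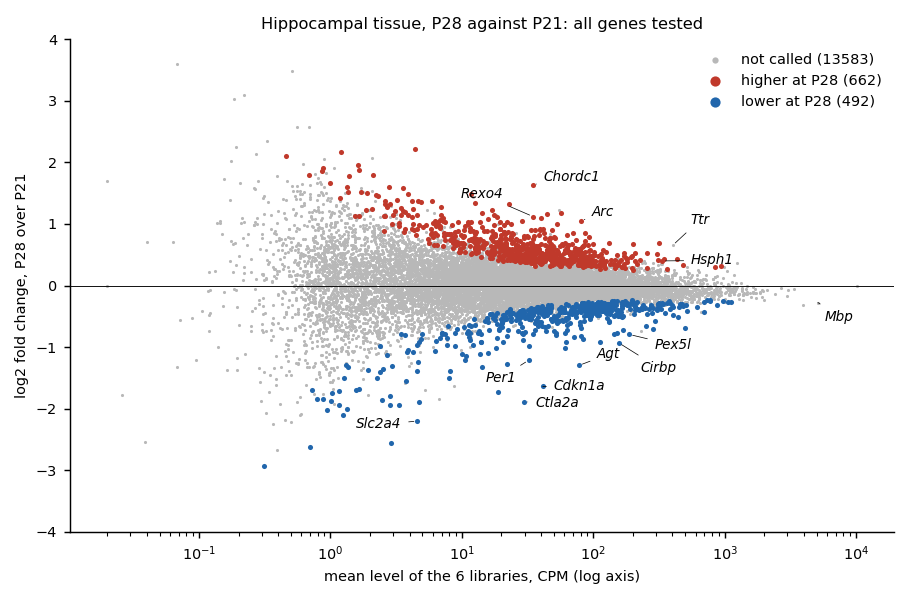
Each point is a gene tested in hippocampal tissue, with the mean CPM of the 3 P28 and 3 P21 libraries on a log axis against the log2 fold change of P28 over P21. The 662 genes called higher at P28 are red and the 492 called lower are blue, and most lie within 1 log2 unit of 0.

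Among heat shock and cold-inducible genes, the few calls went in both directions. Chordc1 encodes an HSP90-binding co-chaperone induced by heat shock. It had the largest change upward among called genes of at least 10 CPM without overlap, predicted genes and cDNA clones left out. Hsph1, a large HSP70-family chaperone, rose too. Cirbp and Rbm3, RNA-binding proteins induced by mild cold, fell. Of the 19 members tested, those 2 were called higher (10.5%, against 4.49% of all genes) and those 2 lower (10.5%, against 3.34%). The other 15 were uncalled, and the list median was −0.04 against 0.00 for all genes.

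Chordc1 (ENSMUSG00000001774.8; mm10 chromosome 9, 18292125 to 18317442) had 56.8, 52.0 and 48.6 CPM in P28 tissue, against 20.3, 13.2 and 16.8 CPM in P21 tissue (log2 fold change 1.64, SE 0.14, adjusted p = 3.49e-06). Every P28 library was more than 2-fold above every P21 library. Hsph1 (chromosome 5, 149614287 to 149636376) had 410, 368 and 359 CPM at P28 and 263, 320 and 279 CPM at P21 (0.40, SE 0.10, adjusted p = 0.0215). Its groups did not overlap, but the call was lost without P28 replicate 1, P21 replicate 1 or P21 replicate 3 (adjusted p = 0.0900, 0.0987 and 0.0678). Cirbp (chromosome 10, 80165985 to 80172786) averaged 107.1 ± 8.61 CPM at P28 and 204.2 ± 2.32 CPM at P21 (SD, n = 3 each; −0.93, SE 0.09, adjusted p = 4.42e-06). Its P28 libraries were all below its P21 libraries. Rbm3 (chromosome X, 8138975 to 8145880) had 53.5, 44.6 and 51.8 CPM at P28 and 77.2, 69.4 and 72.8 CPM at P21 (−0.55, SE 0.09, adjusted p = 9.46e-04). Chordc1, Cirbp and Rbm3 kept their calls in all 6 fits that left out a library. The abundant chaperones had small differences: Hspa8, the constitutive HSP70, averaged 888 CPM at P28 and 807 CPM at P21 and Hsp90ab1 1793 and 1948 CPM, both uncalled (adjusted p = 0.478 and 0.416). Hsf1, the heat shock transcription factor, is no list member and was chosen after its values were seen. It had 38.4, 41.4 and 42.4 CPM at P28 and 26.3, 26.4 and 23.2 CPM at P21 (0.68, SE 0.14, adjusted p = 0.00486).

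**Figure D2:**
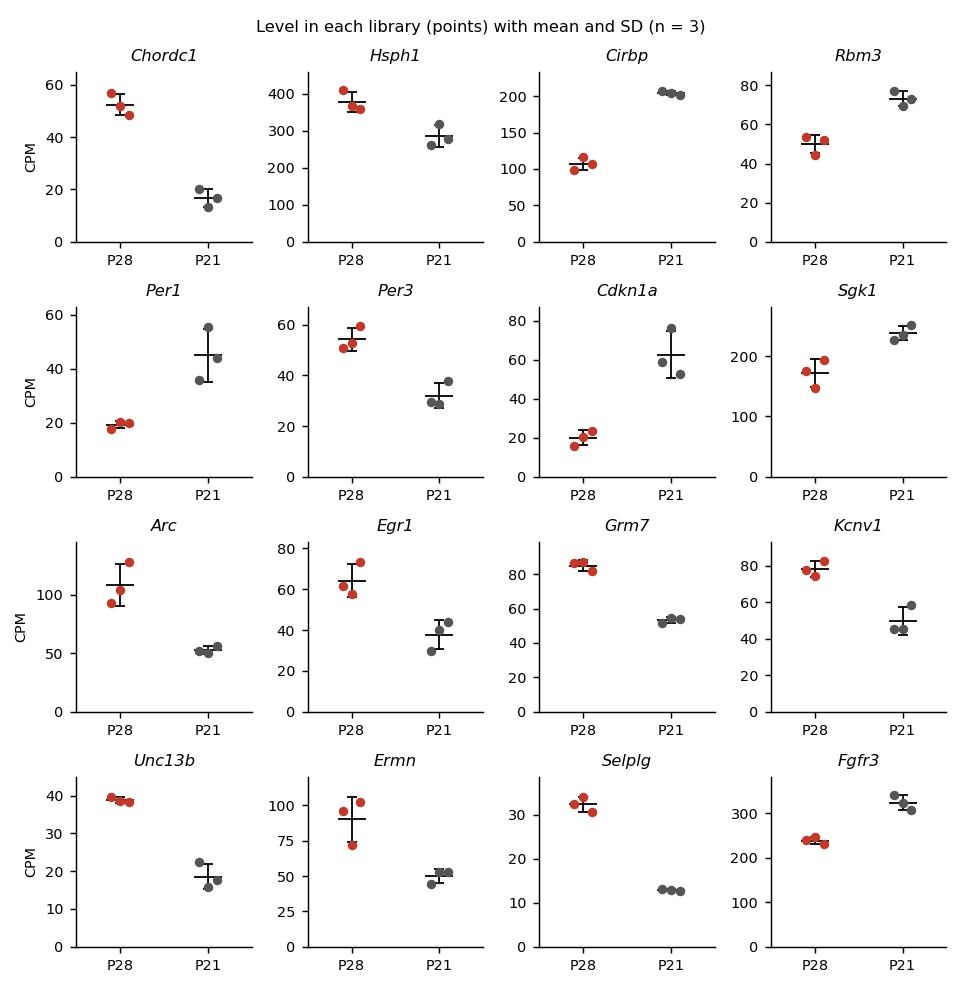
Level in CPM of 16 genes in each of the 3 P28 libraries (red, left) and 3 P21 libraries (grey, right), with mean and SD. The groups do not overlap for any of these genes, with Chordc1 between 48.6 and 56.8 CPM at P28 and between 13.2 and 20.3 CPM at P21.

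Of the genes that fell, Ctla2a, a cysteine protease inhibitor, had 14.7, 11.7 and 11.9 CPM at P28 and 40.6, 65.8 and 33.9 CPM at P21 (−1.89, SE 0.24, adjusted p = 1.70e-04). Pla2g3, a secreted phospholipase, averaged 8.67 ± 2.68 CPM at P28 and 29.0 ± 6.49 CPM at P21 (SD, n = 3 each; −1.74, adjusted p = 1.23e-04). Cdkn1a, the cyclin-dependent kinase inhibitor p21, had 15.9, 20.3 and 23.6 CPM at P28 and 58.8, 76.2 and 52.9 CPM at P21 (−1.64, SE 0.19, adjusted p = 5.94e-05). All 3 were lower in every P28 library than in any P21 library. Heyl, a Notch target of vessel walls, fell by 1.32 on the log2 scale, Agt, the angiotensinogen gene of astrocytes, by 1.30, and Cyp1b1, a cytochrome P450 of vessels, by 1.22. Mkrn3, an imprinted gene known as a brake on puberty, averaged 4.48 CPM at P28 and 11.7 CPM at P21 (−1.40, adjusted p = 6.42e-04). Among the 15 largest decreases were also Per1, Pgm1, P2rx6, Amn, Armcx5, Kcns1 and Hyls1, with log2 fold changes from −1.21 to −0.97. Amn lost its call in 4 of the 6 fits that left out a library (adjusted p 0.0703 to 0.102), all but those without P21 replicate 3 and P28 replicate 2, and Hyls1 without P21 replicate 2, P28 replicate 2 or P28 replicate 3 (0.0565 to 0.0662).

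Below the 10 CPM required for that ranking, Slc2a4, the insulin-responsive glucose transporter GLUT4, had 1.39, 2.15 and 1.39 CPM at P28 and 10.7, 7.47 and 4.51 CPM at P21 (−2.20, SE 0.36, adjusted p = 0.00101). Txnip, which restrains glucose uptake, averaged 31.5 CPM at P28 and 49.5 CPM at P21 (−0.65, adjusted p = 0.00130). Both genes of glucose handling were chosen after their values were seen.

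Chordc1 was the first of the 15 largest increases by the rule used for naming genes. Next to it, Rpgrip1l and Ift80, proteins of the primary cilium, rose by 1.48 (SE 0.24, adjusted p = 9.82e-04) and 1.24 (SE 0.18, adjusted p = 5.03e-04). Rfx3, a transcription factor of ciliary genes, had 65.3, 54.9 and 63.6 CPM at P28 and 26.2, 21.0 and 35.8 CPM at P21 (1.17, SE 0.16, adjusted p = 2.56e-04). Rexo4, a nuclear exonuclease, had 48.5, 45.7 and 48.6 CPM at P28 and 21.5, 22.8 and 21.31 CPM at P21 (1.12, SE 0.10, adjusted p = 3.49e-06). Mettl16, an RNA methyltransferase, rose by 1.17, Jhdm1d, the histone demethylase gene now named Kdm7a, by 1.17, Recql5, a DNA helicase, by 1.11, and Sltm, an RNA-binding nuclear protein, by 1.09. Selplg, a P-selectin ligand of microglia in brain, had 32.4, 34.1 and 30.8 CPM at P28 and 13.1, 12.98 and 12.6 CPM at P21 (1.33, SE 0.17, adjusted p = 1.70e-04). Fabp7, a fatty acid binding protein of radial glia and astrocytes, rose by 1.08, Uba6, a ubiquitin-activating enzyme, by 1.15 and Kctd21 by 1.35. Unc13b and Arc completed the 15, and each of the 15 was called in all 6 fits that left out a library.

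Of 22 genes known to respond to glucocorticoids, 7 were called lower (31.8%, against 3.34% of all genes) and 0 higher, with 14 of 22 log2 fold changes negative and a median of −0.12. The 7 were Cdkn1a, Per1, Plin4, Map3k6, Sult1a1, Ddit4 and Sgk1. Sgk1, a kinase induced by the hormone, had 176, 148 and 194 CPM at P28 and 227.4, 235.4 and 251 CPM at P21 (−0.46, SE 0.13, adjusted p = 0.0309). Plin4, a lipid droplet protein, had 9.29, 8.52 and 10.9 CPM at P28 and 20.5, 16.1 and 17.9 CPM at P21 (−0.92, SE 0.24, adjusted p = 0.0224). Ddit4, an inhibitor of mTOR signalling, averaged 26.8 CPM at P28 and 38.6 CPM at P21 (−0.53, adjusted p = 0.0415). The groups of these genes did not overlap. Other standard targets were uncalled: Fkbp5, the receptor co-chaperone, averaged 131.8 CPM at P28 and 136.3 CPM at P21 (−0.05, adjusted p = 0.813), and Tsc22d3, the gene of GILZ, 311 and 255 CPM (0.29, adjusted p = 0.0690). Tsc22d3 was higher in each P28 library than in any P21 library, and in a fit of the 6 libraries alone it was called higher (adjusted p = 0.0435, with 0.0537 to 0.599 under the other alternatives). Nr3c1 and Nr3c2, the receptors of the hormone, had log2 fold changes of 0.05 and −0.01. Several of the 7 also belong to other programmes, since Cdkn1a stops the cell cycle and Per1 is a clock gene. Cdkn1a and Per1 kept their calls in all 6 fits that left out a library, and the list then had 2 to 6 members called lower. Plin4 lost its call without P28 replicate 1, P28 replicate 2 or P21 replicate 1 (adjusted p = 0.0664, 0.0932 and 0.0996). Map3k6 and Sult1a1 lost theirs in 4 fits each (0.0532 to 0.0999 and 0.0556 to 0.107), keeping them without P28 replicate 2 or P21 replicate 3 and without P21 replicate 2 or P21 replicate 3. Ddit4 and Sgk1 lost theirs in 5 (0.0588 to 0.195 and 0.0606 to 0.137), all but the fit without P28 replicate 3.

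Clock genes changed in opposite directions. Of 21 tested, 5 were lower at P28 (23.8%, against 3.34% of all genes), namely Per1, Gm129 (now named Ciart), Nfil3, Cry1 and Cry2, and 2 were higher (9.52%, against 4.49%), Per3 and Per2. Per1 (chromosome 11, 69095217 to 69109960) had 17.9, 20.4 and 19.8 CPM at P28 and 35.8, 55.4 and 44.2 CPM at P21 (−1.21, SE 0.18, adjusted p = 5.67e-04). Per3 had 50.6, 52.9 and 59.3 CPM at P28 and 29.5, 28.6 and 37.6 CPM at P21 (0.78, SE 0.15, adjusted p = 0.00299). The period genes therefore ran in opposite directions in the same libraries, without overlap. Ciart, a repressor of the clock's activators, had 17.9, 23.6 and 22.6 CPM at P28 and 34.7, 41.7 and 34.4 CPM at P21 (−0.78, SE 0.17, adjusted p = 0.0101). Cry1 averaged 27.3 CPM at P28 and 39.9 CPM at P21 (−0.55, adjusted p = 0.00732), Cry2 210.7 and 264 CPM (−0.32, adjusted p = 0.0168), and Per2 38.5 and 27.6 CPM (0.49, adjusted p = 0.0177). Arntl, the activator BMAL1, differed by −0.26 and Dbp, a clock output, by 0.40, neither called (adjusted p = 0.170 and 0.0572). Dbp was called higher by DESeq2, in a fit of the 6 libraries alone and with a correction for transcript length (lowest adjusted p = 0.0185). Per1 and Per3 kept their calls in all 6 fits that left out a library. Cry1 lost its call without P21 replicate 2 (adjusted p = 0.0513), Ciart without that library or P28 replicate 1 (0.0634 and 0.0529), Cry2 without those or P28 replicate 3 (0.0508 to 0.0968), Nfil3 without P21 replicate 2, P28 replicate 1 or P28 replicate 2 (0.0865 to 0.135), and Per2 in all fits but those without P21 replicate 3 and P28 replicate 1 (0.0528 to 0.0932).

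Among immediate early genes, Arc and Egr1 rose. Arc, a regulator of AMPA receptor trafficking, had 93.0, 104.2 and 128.3 CPM at P28 and 51.7, 50.1 and 56.5 CPM at P21 (1.05, SE 0.15, adjusted p = 2.99e-04). Egr1, an activity-induced transcription factor, had 61.7, 57.5 and 73.4 CPM at P28 and 29.8, 39.9 and 43.7 CPM at P21 (0.78, SE 0.14, adjusted p = 0.00240). The groups were separate for both, and both calls held in all 6 fits that left out a library. Fos, the best known member of the group, had 4.16, 2.81 and 4.78 CPM at P28 and 3.71, 5.96 and 4.20 CPM at P21 (−0.25, adjusted p = 0.689), and Bdnf, a growth factor gene, 55.7, 46.8 and 58.4 CPM and 40.5, 44.5 and 51.9 CPM (0.24, adjusted p = 0.191). Of 35 members tested, 3 were called higher (8.57%, against 4.49% of all genes) and 2 lower (5.71%, against 3.34%), with a median of 0.13. The further calls were Egr2, under 2 CPM at both ages, Nptx2 and Per1. Nptx2, a secreted pentraxin of excitatory synapses, had 19.4, 19.8 and 21.0 CPM at P28 and 35.5, 45.0 and 18.97 CPM at P21 (−0.74, SE 0.22, adjusted p = 0.0475). Its groups overlapped, and its call remained in only 1 of the 6 fits that left out a library, that without P21 replicate 3 (adjusted p 0.121 to 0.270 in the other 5). Egr2 was likewise kept only without P28 replicate 3 (0.0834 to 0.198 in the other 5).

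Of 38 glutamate receptor genes tested, 6 were higher at P28 (15.8%, against 4.49% of all genes) and 1 lower (2.63%, near the 3.34% of all genes), and the median was 0.09. Grm7, a presynaptic metabotropic receptor, had 86.4, 87.1 and 81.6 CPM at P28 and 51.6, 54.4 and 54.1 CPM at P21 (0.67, SE 0.09, adjusted p = 1.70e-04). Shisa9, an auxiliary protein of AMPA receptors, averaged 76.0 CPM at P28 and 52.4 CPM at P21 (0.54, SE 0.11, adjusted p = 0.00755). These groups did not overlap, and the calls of Grm7 and Shisa9 held in all 6 fits that left out a library. Grm8, a relative of Grm7, rose by 0.90, Grin2b, an NMDA receptor subunit, by 0.45, Cacng3, an AMPA receptor auxiliary subunit, by 0.40 and Gria2, the AMPA receptor subunit that limits calcium entry, by 0.32, with adjusted p of 0.0215, 0.0468, 0.0448 and 0.0490. Cacng5 fell by 0.39 (adjusted p = 0.0385). These 5 genes kept their direction in all 6 fits that left out a library, but lost their calls in most or all of them. Grm8 lost its call in 4 of the 6 fits, keeping it without P21 replicate 3 or P28 replicate 3. Grin2b lost it in 4, keeping it without P21 replicate 2 or P28 replicate 1. Cacng3 kept its call only without P28 replicate 1, Cacng5 only without P21 replicate 3, and Gria2 in none (adjusted p up to 0.110, 0.202, 0.196, 0.176 and 0.185 for Grm8, Grin2b, Cacng3, Cacng5 and Gria2). The other NMDA subunits were uncalled: Grin2a had 21.21, 17.4 and 23.98 CPM at P28 and 20.4, 26.1 and 26.1 CPM at P21, and Grin3a averaged 39.9 and 31.3 CPM (adjusted p = 0.492 and 0.101).

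Of 18 GABA receptor genes tested, 1 was called higher (5.56%, near the 4.49% of all genes) and 0 lower. It was Gabrb1, a GABA-A receptor beta subunit, with 120.6, 123.7 and 114.03 CPM at P28 and 65.1, 99.6 and 80.9 CPM at P21 (0.55, SE 0.11, adjusted p = 0.00668). Gabrd, an extrasynaptic subunit, averaged 32.5 CPM at P28 and 37.0 CPM at P21, and Slc12a5, the chloride exporter KCC2, 540 and 513 CPM, both uncalled.

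Of 59 potassium channel genes tested, 6 were higher (10.2%, against 4.49% of all genes) and 2 lower (3.39%, close to the 3.34% of all genes), with a median of 0.11. Kcnv1, a modulatory subunit with no current of its own, had 77.8, 74.4 and 82.7 CPM at P28 and 45.5, 45.4 and 58.8 CPM at P21 (0.66, SE 0.13, adjusted p = 0.00366). Kcns1, another modulatory subunit, went the other way, with 12.6, 12.4 and 11.2 CPM at P28 and 24.9, 28.096 and 19.4 CPM at P21 (−1.01, SE 0.15, adjusted p = 4.81e-04). These modulatory subunits thus changed without overlap between the ages, in different directions. Kcna6 rose by 0.48 (adjusted p = 0.00297). The calls of Kcnv1, Kcns1 and Kcna6 held in all 6 fits that left out a library. Kcnj9, a G protein-gated channel, rose by 0.65 (adjusted p = 0.00802) and lost its call without P21 replicate 2 (0.0589), and Kcnt2, a sodium-activated channel, rose by 0.81 (0.0123) and lost it without P21 replicate 1 or P28 replicate 3 (0.0717 and 0.0605). Kcnn3, a calcium-activated channel, rose by 1.11 but was kept only without P21 replicate 3 or P28 replicate 3, and Kcnj4 fell by 0.37 and was kept only without P21 replicate 3 (adjusted p up to 0.138 and 0.207 elsewhere).

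Of 29 sodium, HCN and calcium channel genes tested, 3 were higher (10.3%, against 4.49% of all genes) and 2 lower (6.90%, against 3.34%). Pex5l, which encodes TRIP8b, the subunit that sets the trafficking of HCN channels in dendrites, had 147, 127.4 and 136.8 CPM at P28 and 220, 257 and 236.1 CPM at P21 (−0.80, SE 0.12, adjusted p = 4.43e-04), without overlap and in all 6 fits that left out a library. Cacna1c, an L-type calcium channel, fell by 0.55 (adjusted p = 0.0115), a call lost without P21 replicate 2 (0.0781). Cacna1e, an R-type channel, Scn2b, a sodium channel beta subunit, and Cacna1i, a T-type channel, rose by 0.48, 0.46 and 0.45. Without single libraries these calls were lost in 3, 4 and all 6 fits (adjusted p up to 0.106, 0.144 and 0.170), and remained for Cacna1e without P21 replicate 2, P21 replicate 3 or P28 replicate 1 and for Scn2b without P21 replicate 2 or P28 replicate 1.

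At the release site, Unc13b stood out. It encodes Munc13-2, which primes synaptic vesicles for fusion, and had 39.6, 38.4 and 38.3 CPM at P28 and 22.3, 15.8 and 17.6 CPM at P21 (1.05, SE 0.15, adjusted p = 3.54e-04). Of 51 vesicle release genes tested, 5 were higher (9.80%, against 4.49% of all genes) and 1 lower (1.96%, against 3.34%), with a median of −0.00. Syn3, a synapsin, rose by 0.57 (adjusted p = 0.00802), and lost its call without P28 replicate 3 (0.0545). Pclo, the active zone scaffold piccolo, rose by 0.48 and kept its call without P21 replicate 3 or P28 replicate 1 only (adjusted p up to 0.103 in the other 4 fits). Syt17 rose by 0.58, Erc1 by 0.35, and Syt12 fell by 0.43. Syt17 kept its call only without P28 replicate 3, and Erc1 and Syt12 in none of the 6 fits (adjusted p up to 0.124, 0.210 and 0.135).

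Of 62 synaptic adhesion genes, 4 were called higher (6.45%, near the 4.49% of all genes) and 0 lower, with a median of 0.07. Of 49 axon guidance genes, 4 were called higher (8.16%) and 0 lower, with a median of 0.12. Slitrk1, a synaptic adhesion protein, had 38.8, 45.5 and 37.2 CPM at P28 and 29.2, 28.27 and 28.6 CPM at P21 (0.50, SE 0.11, adjusted p = 0.0109), and Odz4, the teneurin gene now named Tenm4, rose by 0.49 (0.0170). The receptors Dcc and Unc5c, which bind netrins, rose by 0.60 and 0.51 (adjusted p = 0.00972 and 0.0147), and Plxnc1, a semaphorin receptor, by 0.61 (0.0197). The groups of these 5 genes did not overlap. Each lost its call in some of the fits that left out a library, with log2 fold changes between 0.38 and 0.75 in all of them. Slitrk1 was lost without P28 replicate 2 (0.0668), and Odz4 without that library or P21 replicate 1 (0.0888 and 0.0951). Dcc was lost without P21 replicate 1 or P28 replicate 3 (0.0527 and 0.0685). Unc5c was lost without P21 replicate 1 or P28 replicate 2 (0.0859 and 0.0520), and Plxnc1 without those or P21 replicate 2 (0.0827 to 0.112). The remaining calls, Cntn4, Cntn2 and Nrp1 with log2 fold changes of 0.46, 0.34 and 0.28, were kept only without P28 replicate 2 (adjusted p up to 0.231, 0.220 and 0.154 elsewhere).

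Transcript length moved with these differences. Over 5 equal groups of genes, from the shortest to the longest annotated transcript, the median log2 fold change was −0.05, −0.05, −0.02, 0.03 and 0.12. In the same order 1.51, 2.78, 3.53, 5.50 and 9.21% of genes were called higher and 3.64, 4.43, 3.84, 3.13 and 1.61% lower. The median length was 4732 bases for genes called higher, 3028 bases for those called lower and 3457 bases for all tested. When the trend with length was removed from each library, an alternative added after seeing the data, 512 of 14553 genes were higher and 503 lower. The genes called higher then numbered 4 in place of 6 for glutamate receptors, 5 in place of 6 for potassium channels, 3 in place of 5 for vesicle release, 1 in place of 4 for adhesion, 3 in place of 4 for guidance and 0 in place of 1 for GABA receptors. Guidance then also had 1 gene called lower, against 0 before. Sodium, HCN and calcium channels had 1 higher and 3 lower in place of 3 and 2, with Cacna1e and Cacna1i no longer called, and mature granule cell genes 3 higher in place of 4. By contrast, Grm7, Shisa9, Kcnv1, Kcna6, Unc13b and Pex5l kept their calls. Some of these counts also fell in fits that make no use of length. With RLE scaling 4 glutamate receptor, 4 vesicle release, 3 adhesion and 3 guidance genes were called higher, and as many with a replicate block. Potassium channels stayed at 6 and GABA receptors at 1 in both. Grin2b, Gria2, Erc1, Cntn4 and Nrp1 lost their calls under RLE scaling.

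**Figure D3:**
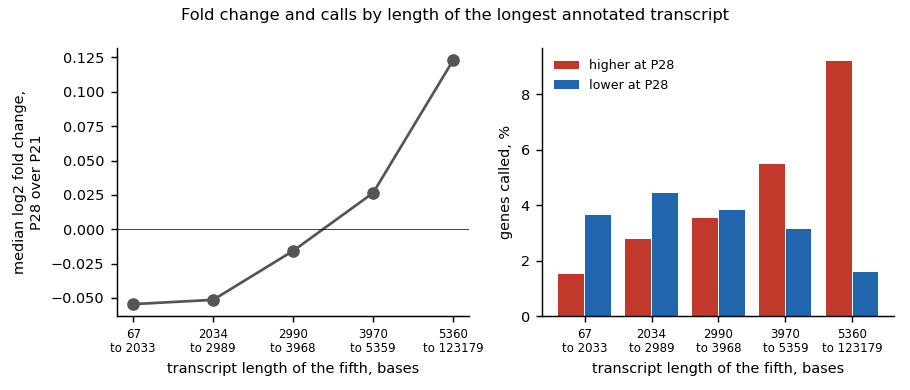
Tested genes in 5 groups by the length of their longest annotated transcript, with the median log2 fold change of P28 over P21 (left) and the percent of genes called higher (red) or lower (blue) at P28 (right). The median runs from −0.05 in the shortest group to 0.12 in the longest, where 9.21% of genes are called higher and 1.61% lower.

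Of 20 astrocyte markers tested, 4 were called lower (20%, against 3.34% of all genes), 0 higher and 17 had a negative log2 fold change, with a median of −0.17. Their summed level was 9275 to 9387 CPM in P28 libraries and 10150 to 11050 CPM in P21 libraries, so the ages did not overlap. Such separation was not particular to astrocytes. Immature neuron genes summed to 1662 to 1881 CPM at P28 and 1997 to 2071 CPM at P21. Proliferation genes went the other way, with 252.7 to 272 and 214.6 to 239.3 CPM. Fgfr3, a growth factor receptor, had 239.4, 246.3 and 230 CPM at P28 and 342, 323 and 307 CPM at P21 (−0.44, SE 0.09, adjusted p = 0.00628), and Sox9, a glial transcription factor, 34.9, 48.7 and 47.2 CPM at P28 and 67.4, 63.8 and 64.2 CPM at P21 (−0.57, SE 0.12, adjusted p = 0.00801). Fgfr3 and Sox9 were called in all 6 fits that left out a library. Aldh1l1, a folate enzyme and astrocyte marker, fell by 0.36 and Aldoc, an aldolase, by 0.27, calls that were lost without any 1 of the 6 libraries (adjusted p 0.0529 to 0.174 and 0.0565 to 0.0801). Gfap, the filament protein, averaged 333 CPM at P28 and 371 CPM at P21, and Aqp4, the water channel, 223.6 and 196 CPM, both uncalled (adjusted p = 0.630 and 0.369).

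Of 22 myelin genes, 2 were higher (9.09%, against 4.49% of all genes) and 2 lower (9.09%, against 3.34%), with a median of −0.02. Mbp, myelin basic protein, had 5034, 4041 and 4821 CPM at P28 and 5148, 5810 and 5872 CPM at P21 (−0.28, adjusted p = 0.145). Mobp, another myelin protein, averaged 454 CPM at P28 and 554 CPM at P21 (adjusted p = 0.0872). Ermn and Fa2h rose, while Mag and Tspan2 fell. Ermn, a cytoskeletal protein of late oligodendrocytes, had 96.3, 71.9 and 102.2 CPM at P28 and 44.5, 53.0 and 52.6 CPM at P21 (0.85, SE 0.14, adjusted p = 9.12e-04), and Fa2h, which hydroxylates myelin lipids, averaged 94.6 and 63.6 CPM (0.57, SE 0.10, adjusted p = 0.00240). Both calls held in all 6 fits that left out a library. Mag, an adhesion protein of myelin, had 372, 324 and 395 CPM at P28 and 523, 593 and 441 CPM at P21 (−0.51, SE 0.14, adjusted p = 0.0355), and Tspan2 fell by 0.42 (0.0343). Mag was kept only without P21 replicate 3, and Tspan2 only without P21 replicate 1 or P28 replicate 1 (adjusted p up to 0.163 and 0.159 elsewhere). Of 14 precursor genes, 2 were called lower (14.29%, against 3.34% of all genes) and 0 higher: Neu4, a sialidase, by 0.52, lost without P21 replicate 1, P21 replicate 2 or P28 replicate 2 (adjusted p 0.0705 to 0.122), and Pdgfra, the growth factor receptor, by 0.33, lost without any 1 library (0.0547 to 0.134).

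Of 19 microglial genes, 3 were higher (15.8%, against 4.49% of all genes) and 1 lower (5.26%, against 3.34%), with a median of 0.16 and a summed level of 573 to 619 CPM at P28 and 554 to 573 CPM at P21. P2ry12, the purine receptor of resting microglia, had 61.1, 61.4 and 65.0 CPM at P28 and 48.1, 39.9 and 51.5 CPM at P21 (0.43, SE 0.11, adjusted p = 0.0216), while Cd68, a lysosomal protein, had 8.46, 6.28 and 9.48 CPM at P28 and 13.3, 12.5 and 17.6 CPM at P21 (−0.83, SE 0.21, adjusted p = 0.0214). P2ry12 lost its call in 4 fits, being kept without P21 replicate 3 or P28 replicate 1 (adjusted p up to 0.119), and Cd68 without P21 replicate 3, P28 replicate 1 or P28 replicate 2 (0.0514 to 0.105). Aif1 and Csf1r rose by 0.82 and 0.27 and lost their calls without any 1 library (up to 0.181 and 0.141). Of 20 endothelial and pericyte genes, 2 were lower (10%, against 3.34% of all genes) and 0 higher. With the length trend removed 5 were lower, against 503 of all 14553 genes, and by DESeq2 3, against 625 of all 14737 genes. Cldn5, a tight junction protein, had 26.2, 32.1 and 27.1 CPM at P28 and 38.8, 46.3 and 45.6 CPM at P21 (−0.61, SE 0.14, adjusted p = 0.0152), lost without P21 replicate 2, P28 replicate 1 or P28 replicate 3 (0.0592 to 0.0701). Pecam1, an endothelial adhesion protein, fell by 0.50 and was kept only without P21 replicate 2 (adjusted p up to 0.125 elsewhere).

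Of 53 nuclear genes of oxidative phosphorylation tested, 44 had a negative log2 fold change, 4 were called lower (7.55%, against 3.34% of all genes) and 0 higher, with a median of −0.11. DESeq2 called 11 lower, against 625 of all 14737 genes. With the length trend removed 2 were called lower, against 503 of all 14553 genes. Their summed level was 10690 to 11270 CPM at P28 and 12090 to 12380 CPM at P21, without overlap. Uqcrc2, a core protein of complex III, had 268, 246.3 and 230 CPM at P28 and 321, 325 and 315 CPM at P21 (−0.37, SE 0.08, adjusted p = 0.00557) and was called in all 6 fits that left out a library. Uqcrc1, of the same complex, Atp5a1, of the ATP synthase, and Sdhd, of complex II, fell by 0.27, 0.24 and 0.28. Sdhd was kept only without P21 replicate 3 or P28 replicate 1, and Uqcrc1 and Atp5a1 were kept in none (adjusted p up to 0.158, 0.137 and 0.139). Of 45 cytosolic ribosomal protein genes, 35 had a negative log2 fold change. By edgeR 0 were called. At an unadjusted p under 0.05, reached by 3418 of all 14737 genes, 1 was higher and 5 lower. DESeq2 called 1 of the 45 lower, against 625 of all 14737 genes. Their median was −0.07 and their summed level 4078 to 4212 CPM at P28 and 4357 to 4483 CPM at P21. With the length trend removed, the medians were −0.08 for oxidative phosphorylation and −0.03 for ribosomal proteins. Of 23 cholesterol synthesis genes 1 was called lower (4.35%, near the 3.34% of all genes) and 0 higher. It was Insig1, a brake on the pathway, which fell by 0.40 (adjusted p = 0.0367) and was kept only without P28 replicate 1 (up to 0.166 elsewhere).

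Of 15 genes of mature granule cells, 4 were higher (26.7%, against 4.49% of all genes) and 1 lower (6.67%, against 3.34%), with a median of 0.27. Lct, the lactase gene, which was also present in single CA1 pyramidal neurons (42.1 CPM), had 30.1, 23.1 and 35.3 CPM at P28 and 11.7, 16.004 and 15.9 CPM at P21 (1.03, SE 0.17, adjusted p = 0.00100), and Rfx3 is given above. Both were called in all 6 fits that left out a library. Plk5 rose by 0.72 and Pdzd2 by 0.49, and Tdo2, a tryptophan-degrading enzyme, had 13.4, 6.95 and 6.25 CPM at P28 and 20.6, 21.7 and 13.4 CPM at P21 (−1.11, SE 0.25, adjusted p = 0.0103), with groups that overlapped. Plk5 was kept only without P28 replicate 1, Pdzd2 only without P21 replicate 3 or P28 replicate 2, and Tdo2 was lost without P21 replicate 2, P28 replicate 2 or P28 replicate 3 (adjusted p up to 0.190, 0.101 and 0.0709). The standard granule cell markers Prox1, a transcription factor, and Calb1, calbindin, averaged 37.9 and 214.9 CPM at P28 and 43.8 and 206 CPM at P21, both uncalled. Of 19 pyramidal cell genes, 1 was higher (5.26%, near the 4.49% of all genes) and 1 lower (5.26%, against 3.34%). Amigo2 rose by 0.54 (adjusted p = 0.0367) and Cacng5 fell, as given above. The call of Amigo2 was lost without P21 replicate 1, P21 replicate 3, P28 replicate 1 or P28 replicate 3 (up to 0.177).

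**Figure D4:**
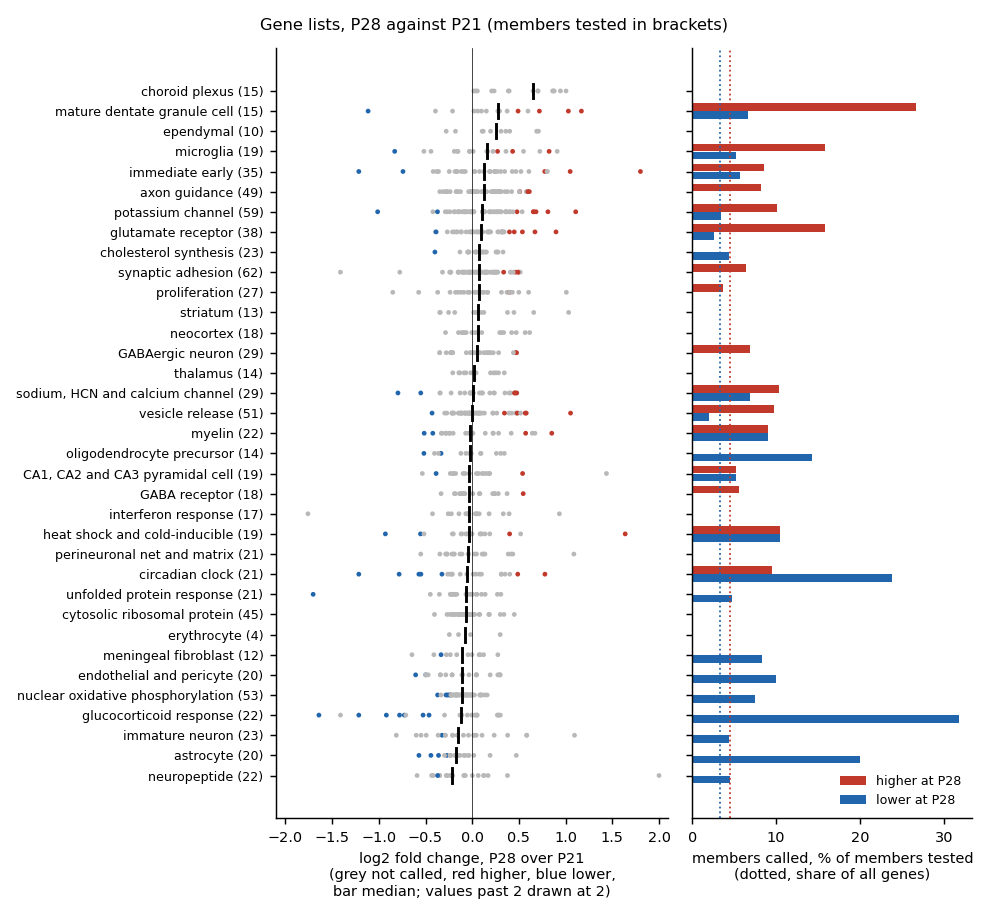
Left, log2 fold change of P28 over P21 of each tested member of 35 gene lists (red called higher, blue called lower, grey not called) with the list median as a bar. Right, percent of members called in each direction, with the shares of all genes, 4.49 and 3.34%, as dotted lines: 31.8% of the glucocorticoid response list and 20% of the astrocyte list were lower, and 26.7% of the dentate granule cell list higher.

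Interneuron genes gave 2 calls among 29, both upward (6.90%, against 4.49% of all genes): Nos1, neuronal nitric oxide synthase, by 0.47, and Reln, the secreted protein reelin, by 0.46. Nos1 was kept only without P28 replicate 1 and Reln only without P21 replicate 3 or P28 replicate 1 (adjusted p up to 0.1004 and 0.247 elsewhere), and with the length trend removed 0 of the 29 were called. Pvalb, the calcium buffer parvalbumin, had 14.14, 15.7 and 15.2 CPM at P28 and 14.5, 15.5 and 13.4 CPM at P21 (0.05, SE 0.20, adjusted p = 0.911). The GABA-making enzymes Gad1 and Gad2 averaged 576 and 225.5 CPM at P28 and 602 and 228.6 CPM at P21. The peptide genes Sst, Vip, Npy and Cck averaged 68.7, 26.1, 41.2 and 154 CPM at P28 and 80.3, 33.3, 50.1 and 136.6 CPM at P21, all uncalled. Of 22 neuropeptide and granin genes, 15 had a negative log2 fold change with a median of −0.22. Of these 22, 1 was called lower (4.5%, near the 3.34% of all genes) and 0 higher. It was Scg2, secretogranin 2, with 232, 193 and 223.98 CPM at P28 and 249, 299 and 293 CPM at P21 (−0.37, SE 0.09, adjusted p = 0.0197). The call was lost without P21 replicate 2, P21 replicate 3 or P28 replicate 2 (0.0606 to 0.101).

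Genes of young and dividing cells gave 1 call in each direction. Dcx, a microtubule protein of newborn neurons, had 17.3, 18.3 and 23.5 CPM at P28 and 19.1, 24.3 and 23.5 CPM at P21 (−0.16, adjusted p = 0.605), and Sox11 averaged 20.5 and 20.2 CPM. Of 23 immature neuron genes, 1 was called lower (4.35%, near the 3.34% of all genes) and 0 higher. It was Tubb2b, a tubulin of growing axons, which fell by 0.32 (adjusted p = 0.0326). The call was lost without P21 replicate 1, P21 replicate 2, P28 replicate 1 or P28 replicate 3 (0.0665 to 0.163). It was also lost with the length trend removed, which left 0 of the 23 called. DESeq2 called 2 of the 23 lower, against 625 of all 14737 genes. A fit of the 6 libraries alone called 3 of 21 lower, against 552 of all 14259 genes. Of 27 proliferation genes, 1 was called higher (3.70%, near the 4.49% of all genes) and 0 lower. It was Ccnd2, the cyclin of neural progenitors, with 134.6, 126.7 and 134.9 CPM at P28 and 93.4, 106.9 and 99.7 CPM at P21 (0.40, SE 0.08, adjusted p = 0.00366). The call held in all 6 fits that left out a library.

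Markers of tissue next to the hippocampus varied by library. Ttr, the transthyretin gene of choroid plexus, had 39.8, 651 and 782 CPM at P28 and 891, 28.8 and 12.9 CPM at P21, so each age held libraries with much and with little (adjusted p = 0.826). The summed level of the 15 choroid plexus genes was 101.6 to 1110 CPM at P28 and 66.2 to 1222 CPM at P21, none of the 15 was at 0 in all 6 libraries, and 0 were called by edgeR or DESeq2 or had an unadjusted p under 0.05. All 15 log2 fold changes were positive, with a median of 0.65, which lay between 0.10 and 1.03 without any 1 of the other 5 libraries and was 3.06 without P21 replicate 1. Of the lists for thalamus, striatum, neocortex and ependyma, 0 of 14, 13, 18 and 10 genes were called by edgeR. At an unadjusted p under 0.05, reached by 3418 of all 14737 genes, these lists held 0, 1, 5 and 0 genes, all higher. DESeq2 called 2 of the neocortex genes higher, against 754 of all 14737 genes. The part of admixed tissue in the other differences was not tested. Of 12 meningeal genes 1 was lower (8.33%, against 3.34% of all genes), Pdgfra, given above, and 0 higher.

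The remaining lists gave few calls. Of 21 genes of the unfolded protein response, 1 was called lower (4.76%, near the 3.34% of all genes) and 0 higher. Atf3, a stress-induced transcription factor, was that gene, with 0.416, 0.413 and 1.23 CPM at P28 and 1.78, 2.58 and 2.95 CPM at P21 (−1.70, SE 0.47, adjusted p = 0.0339). Its groups did not overlap, and the call was lost without P21 replicate 2, P21 replicate 3, P28 replicate 1 or P28 replicate 2 (0.0840 to 0.137). Perineuronal net, interferon response and erythrocyte lists had 0 of 21, 17 and 4 genes called by edgeR or DESeq2. At an unadjusted p under 0.05, reached by 3418 of all 14737 genes, 2, 2 and 0 were higher and 1, 1 and 0 lower.

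The P21 libraries are shared by the comparison with P28 and by that with P14, so levels at the other ages are given as values only. Against P14, 1463 genes were higher (9.93%) and 1563 lower (10.6%) at P21, and 279 higher (1.89%) and 274 lower (1.86%) at P28. At P0, P7, P14, P21 and P28 Chordc1 averaged 58.9, 60.4, 71.0, 16.8 and 52.5 CPM, and Rexo4 43.3, 45.0, 51.5, 21.8 and 47.6 CPM. Both were lowest at P21. At the same 5 ages Cdkn1a averaged 7.35, 27.1, 18.2, 62.6 and 19.9 CPM, Ctla2a 5.44, 7.37, 11.97, 46.8 and 12.8 CPM, and Armcx5 16.3, 20.7, 32.4, 81.6 and 40.5 CPM. These were highest at P21. Mkrn3 followed another course, with 34.2, 42.0, 15.1, 11.7 and 4.48 CPM. For P28 over P14 directly, the log2 fold change was −0.43 for Chordc1 (adjusted p = 0.0750), −0.12 for Rexo4 (0.516), 0.09 for Cdkn1a (0.855) and 0.05 for Ctla2a (0.939), while Cirbp (0.73, adjusted p = 1.44e-04), Rbm3 (0.50, 0.00510) and Mkrn3 (−1.73, 1.44e-04) differed.

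**Figure D5:**
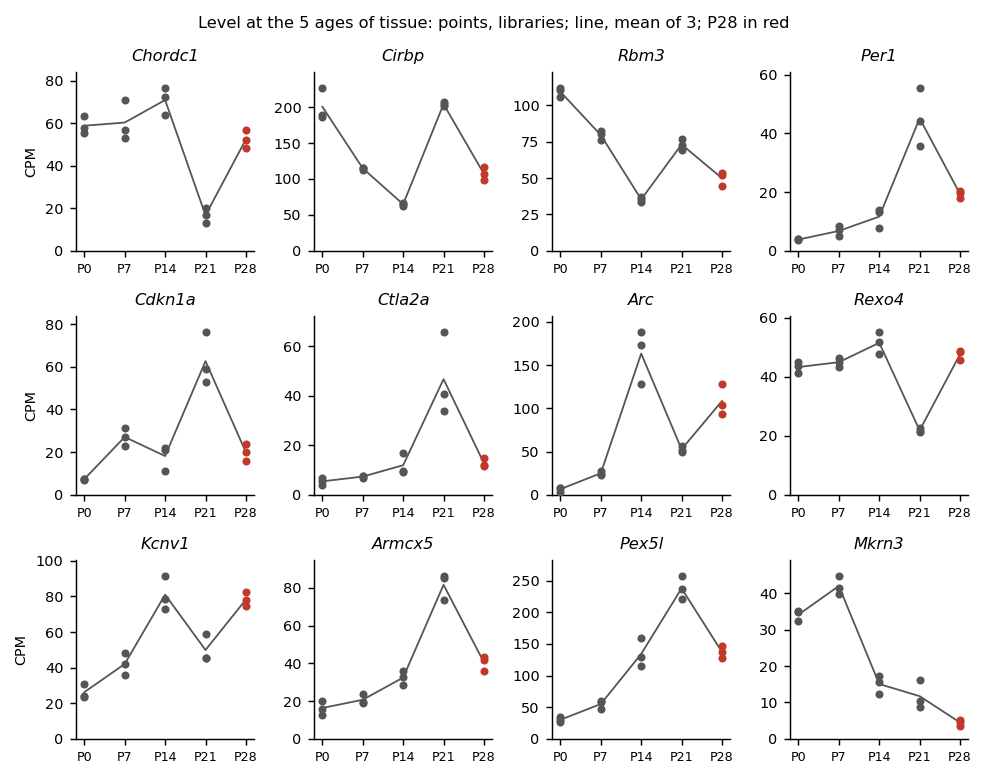
Level in CPM of 12 genes in each tissue library at P0, P7, P14, P21 and P28 (points; P28 in red), with a line through the means of 3. Chordc1 and Rexo4 are lowest at P21, Cdkn1a, Ctla2a, Per1, Armcx5 and Pex5l highest at P21, and Mkrn3 lowest at P28.

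The single neurons of the series give levels of these genes in pools of single cells. Since no label ties a cell to an animal, reads were summed over the cells of each of the 5 types and no test was made. A few cells with many reads can set such a sum. Mag, a myelin gene, had 32.0 CPM in burst firing and 9.56 CPM in regular firing pyramidal cells of the subiculum. Reads in a pool therefore need not come from the neurons themselves. Cyp1b1 had 0 reads in all 5 types, which allows up to 0.0452 to 0.182 CPM per type at a limit of 3 reads, and Heyl 0 reads in 4 types and 0.0458 CPM in burst firing pyramidal cells of the subiculum. Chordc1 had 89.8 to 172 CPM and Arc 58.3 to 287 CPM in the 5 types. Lct was highest in CA1 pyramidal cells, with 42.1 CPM against 0 to 10.6 CPM in the other types, as was Kcnv1, with 93.9 CPM against 0.504 to 12.9 CPM. CA1 cells were prepared with version 3 and subiculum cells with version 4 of the cDNA kit, so levels in CA1 and subiculum cells differ in preparation too.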

How the data were processed

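The authors deposited 1 table of raw read counts for 23337 gene symbols and 92 spike-in rows. Spike-ins were left out. Per the submitters' processing notes, tools included STAR, HTSeq, Trim Galore, cutadapt and FastQC. Builds named there are hg19 and mm10. No version or role is given. Whether reads were counted by strand is not stated, so a gene cannot be separated from its antisense partner, nor close paralogs from each other.

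Counts were analysed with edgeR 4.0.16 in R 4.3.3: low counts removed by filterByExpr (14737 of 19485 genes with a read left), TMM scaling, and a robust quasi-likelihood fit of all 15 tissue libraries with a term per age, which share 1 estimate of spread (common biological coefficient of variation 0.119). The contrast was P28 minus P21, and calls needed p under 0.05 after Benjamini-Hochberg adjustment. The SE is the log2 fold change over the square root of F. CPM are TMM-scaled. The fit was tested on simulated data. Symbols were matched to GENCODE M21 (GRCm38, mm10), older ones through RefSeq synonyms. Depth was 6871254 to 13262818 gene reads in the 6 libraries, and no interval is given for single counts.

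The comparison and the 36 gene lists, of which 35 had a tested member, were chosen with earlier results of these data known. Genes named are the 15 largest changes each way among called genes of at least 10 CPM without overlap, the 2 highest and 2 lowest of each list among members of at least 5 CPM, every called member of lists with up to 6, and 27 fixed genes. The ranking of the 15 left out predicted genes and cDNA clones, with symbols of Gm and a number or ending in Rik. From the genes so named the text gives those with the clearest values. Some genes that the rule names are not reported here. Other called list members, and Hsf1, Slc2a4, Txnip, Fkbp5, Tsc22d3, Dbp, Arntl, Hspa8, Hsp90ab1, Nr3c1, Nr3c2, Prox1 and Calb1, were added after their values were seen. The alternatives tried were DESeq2 1.42.0, RLE scaling, all genes with a read, thinning to the smallest library, the 6 libraries alone, a replicate block, each library left out and, added later, a length correction and thinning to the smallest of the 6. Figures were drawn with matplotlib 3.10.9 in Python 3.11.15.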

Additional observations from a re-analysis of the deposited data

How the results depend on the processing

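The counts of 662 genes higher and 492 lower at P28 stayed within 1.5 times under RLE scaling, DESeq2, no filter, the 6 libraries alone, the length correction and thinning to the smallest of the 6 libraries. Thinning every library to the smallest of the 15, 2341677 reads, left 29 higher and 24 lower, so depth limits how many genes can be called. Leaving out 1 library at a time gave 302 to 527 higher and 179 to 342 lower. Deviations of same-numbered libraries of the 2 ages correlated at −0.275, −0.0287 and −0.0955, and those of differently numbered libraries at −0.123 to 0.191. Deviations from a mean of 3 are tied to each other, so these values cannot show whether the numbers pair the samples. With a replicate block 551 genes were higher and 389 lower.

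Among uncalled genes, the sign of the log2 fold change reversed when 1 library was left out for Calb1 (−0.0521 to 0.169, negative without P21 replicate 1 or P28 replicate 1), Nr3c1 (−0.0143 to 0.145, negative without P21 replicate 1), Nr3c2 (−0.134 to 0.102, positive without P21 replicate 2, P21 replicate 3 or P28 replicate 2), Fkbp5 (−0.125 to 0.0657, positive without P21 replicate 2), Gad2 (−0.0605 to 0.0242, positive without P21 replicate 2 or P28 replicate 3), Sox11 (−0.0747 to 0.166, negative without P21 replicate 1 or P28 replicate 3) and Pvalb (−0.000841 to 0.105, negative without P21 replicate 3). With the length correction Sox11 and Nr3c1 were at −0.0900 and −0.0303, and with the replicate block Nr3c2 was at 0.00236. Pvalb was at −0.0368 when thinned to the smallest of the 6 libraries, and when thinned to the smallest of the 15 Pvalb, Gabrd and Dcx were at −0.437, 0.0848 and 0.330.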
